A study of Canis lupus familiaris with 13 samples.

Results

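MYH7, MYL2, MYL3, TNNT2, TNNI3 and TNNC1 encode the main motor and calcium-sensing proteins of the ventricular sarcomere, and the signals of all their probe sets were followed over dog hearts of 4 groups. A probe set is a group of short array probes that read 1 transcript or a few related ones. Members were all probe sets whose array annotation gives exactly 1 of these 6 symbols: 14 of 23836 probe sets on the array, of which 6 stand for MYH7, 2 each for MYL2, MYL3 and TNNI3, and 1 each for TNNT2 and TNNC1. The filter on low signal kept 13 of the 14 for testing, and TNNI3 1590410_at, with a mean signal of 95.9, is given as values only.

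The series holds 13 arrays of heart tissue from 3 Dobermans with dilated cardiomyopathy (DCM, a disease in which the ventricle widens and pumps weakly), called K, L and R, 4 Boxers with DCM, called 1 to 4, 3 mongrels whose hearts were paced, called LV01, LV02 and LV04, and 3 control mongrels, called P1, P4 and P9. Total RNA was extracted with Trizol, cleaned on RNeasy columns, labelled with biotin by the 1-cycle Affymetrix protocol and hybridised to an Affymetrix canine array. No unaffected Doberman or Boxer was among the samples, so breed and disease cannot be told apart in either breed. The labels give neither the age nor sex of the dogs, the rate or length of pacing, nor the chamber the tissue came from, and nothing says more of the replicates than separate names, so p-values measure the spread between these samples.

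In the thick filament, myosin heavy chains pull on actin, and each chain carries a regulatory and an essential light chain around its lever arm. On the thin filament, troponin T anchors the troponin complex to tropomyosin, troponin I holds the filament in its blocked state, and troponin C binds calcium and lifts that block. The 6 genes studied encode the forms that adult ventricles of large mammals use, and variants in several of them are known causes of inherited cardiomyopathy in humans.

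Each gene's leading probe set, the tested one with the highest mean signal, was among the brightest on every array. All 6 ranked within the top 49 probe sets of each array, at 37.3% to 100% of the highest signal on it. The change of the 100 brightest probe sets that are no members is therefore given beside theirs. The 2% trimmed mean signal was 500.1 on every array, while the median signal ran from 160 to 234 in Dobermans, 132 to 146 in Boxers, 208 to 219 in paced hearts and 143 to 146 in controls. The GAPDH control probe sets gave a 3′ over 5′ ratio, which rises when RNA is degraded or copied short, of 1.08 on the array of Doberman K, 2.10 on that of L and 3.62 on that of R, and between 0.967 and 1.09 on the other 10 arrays. The arrays of L and R stood apart from that of K, with correlations over probe sets of 0.773 to 0.806, against at least 0.945 within the other groups. L and R correlated with each other at 0.882, which is also below the other groups.

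MYH7 encodes the beta (slow) cardiac myosin heavy chain, the motor of the ventricle. Its leading probe set, 1604415_s_at, had signals of 28680, 61099 and 58977 in Dobermans K, L and R, 25696, 27274, 28840 and 29543 in Boxers 1 to 4, 23251, 26259 and 27729 in the paced hearts, and 38486, 39028 and 26108 in controls P1, P4 and P9. L and R lay above every other array, K lay within the control range, and P1 and P4 lay above every Boxer and paced heart. In bulk tissue, fewer cells of a type and less RNA per cell cannot be told apart.

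MYL2 encodes the ventricular regulatory light chain. Its leading probe set, 1582670_s_at, read 28692, 51955 and 58928 in Dobermans K, L and R, 25430, 24081, 25869 and 28134 in Boxers, 20488, 23407 and 22569 in paced hearts, and 31627, 34244 and 23076 in controls. MYL3, the ventricular essential light chain, read 26133, 40387 and 34385 in Dobermans, 24048, 24433, 27454 and 27916 in Boxers, 20611, 22997 and 23051 in paced hearts, and 35598, 34301 and 23730 in controls with its leading probe set 1596171_s_at. For MYL3 only Doberman L exceeded every control, and every paced heart lay below every control.

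TNNT2 encodes cardiac troponin T. Its probe set, 1582422_s_at, read 25922, 52654 and 42233 in Dobermans, 23423, 23941, 28653 and 27753 in Boxers, 20196, 21774 and 23853 in paced hearts, and 33710, 35378 and 23651 in controls. TNNI3, cardiac troponin I, which protein kinase A phosphorylates to speed relaxation, read 25870, 61322 and 62308 in Dobermans, 25149, 27271, 24816 and 26801 in Boxers, 22540, 24161 and 23161 in paced hearts, and 37888, 38936 and 23582 in controls with its leading probe set 1582664_s_at. TNNC1, the calcium-binding troponin C of heart and slow muscle, read 28048, 57862 and 66231 in Dobermans, 23807, 25529, 27008 and 28021 in Boxers, 23120, 25693 and 24125 in paced hearts, and 33747, 35663 and 24762 in controls with its probe set 1604456_at. All 3 troponin genes showed the pattern of MYH7: Dobermans L and R were highest, Doberman K lay within the control range, and control P9 lay near the Boxer and paced hearts.

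**Figure D1:**
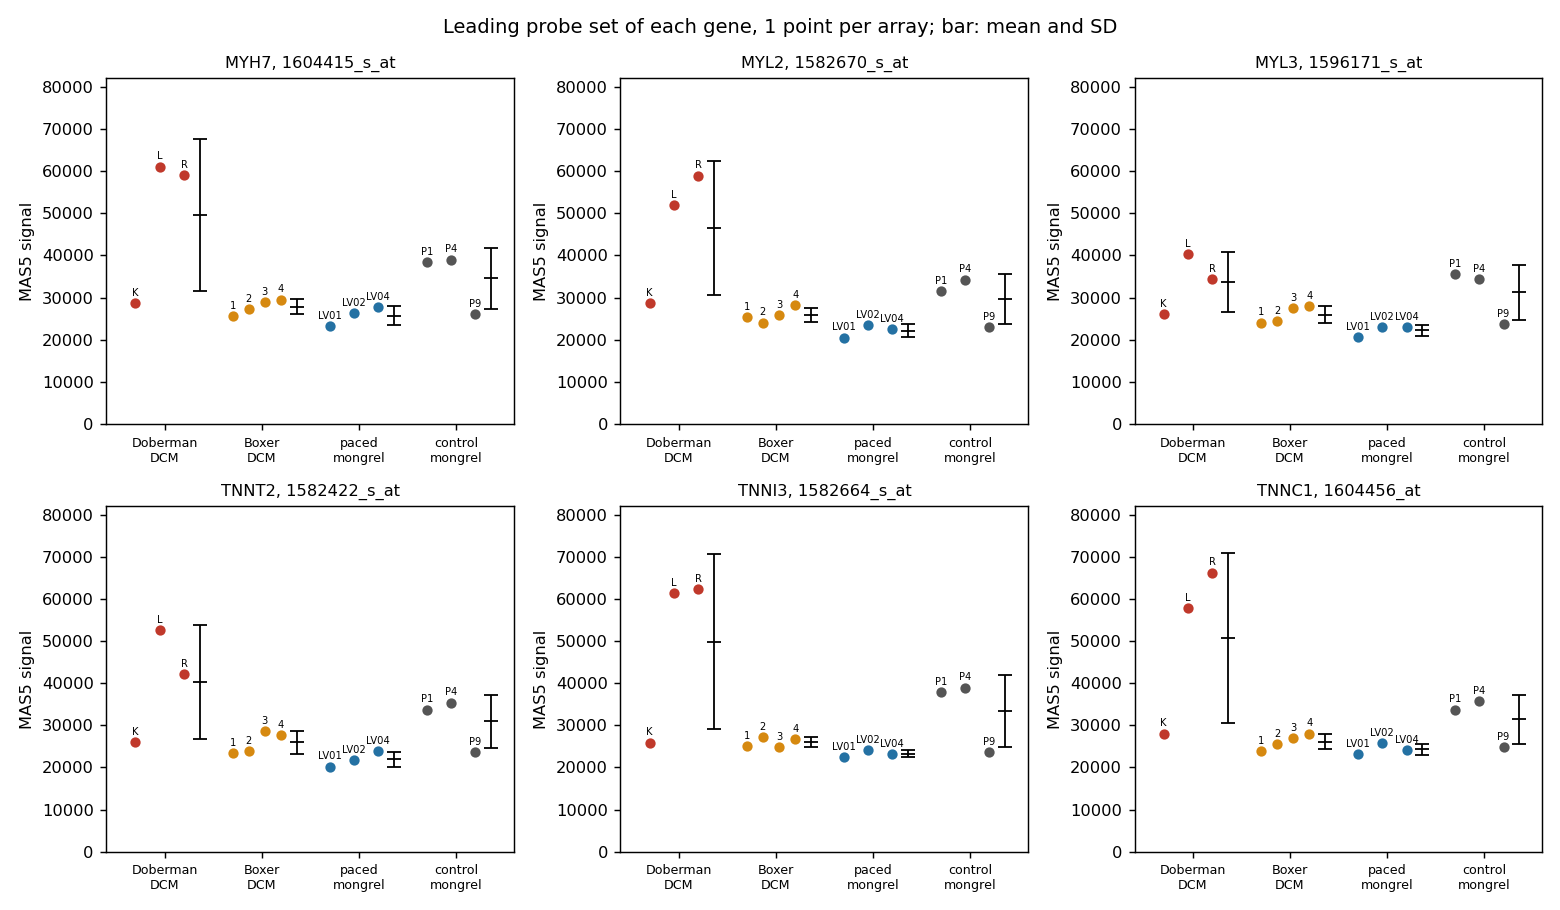
MAS5 signal (y axis, starting at 0) of the leading probe set of each gene, 1 point per array named by its sample, in Doberman, Boxer, paced and control hearts (x axis), with the mean and SD of each group drawn to the right of its points. In all 6 panels Doberman L stands above every control, Doberman K lies within the control range, and controls P1 and P4 lie above every Boxer and paced heart.

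The group means of the leading probe sets had the same order for all 6 genes: Dobermans highest, controls next, then Boxers, and paced hearts lowest. MYH7 averaged 49590 ± 18140 in Dobermans, 27840 ± 1714 in Boxers, 25750 ± 2283 in paced hearts and 34540 ± 7308 in controls (SD, n = 3, 4, 3 and 3). No leading probe set passed the test between neighbours in that order (Dobermans and controls, Boxers and controls, Boxers and paced hearts), and under quantile normalization Dobermans averaged below controls, Boxers and paced hearts for all 6. The 6 genes varied together across arrays: over the 13 arrays, Pearson's r between the log2 values of leading probe sets ran from 0.856 to 0.988 in the 15 pairs, and over the 11 arrays without L and R from 0.887 to 0.982. These points share the scaling of each array.

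The genes most like the members over the same 13 arrays were chosen as the 3 with the highest r for each leading probe set, and LOC403631, CRYAB and RPS29 were named for more than 1 member. LOC403631 led for MYH7 with r = 0.986 and for TNNI3 with r = 0.981, and CRYAB led for MYL2 with r = 0.992 and for TNNC1 with r = 0.997. For TNNT2 the nearest was ACTC1, cardiac actin, with r = 0.976, and for MYL3 it was CHCHD10 with r = 0.960. These are descriptions over arrays that share group and scaling. Dobermans L and R are in every r, and likeness was not computed without them.

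Against the control hearts, MYH7 alone among the members passed the test in Dobermans, and there in 2 of its 6 probe sets. MYH7 1605998_at read 17074, 2010 and 2606 in Dobermans K, L and R, against 25901, 27789 and 20126 in controls P1, P4 and P9. MYH7 1604094_at read 18042, 900 and 1744 in Dobermans, against 26063, 30955 and 20752 in controls. All 3 Dobermans lay below every control on both, but K by far less than L and R. By limma with Benjamini-Hochberg adjustment over 14302 tested probe sets, MYH7 1605998_at fell by 2.44 ± 0.55 on the log2 scale (SE, adjusted p = 0.0119), which is 5.43-fold lower, and MYH7 1604094_at fell by 3.06 ± 0.73 (adjusted p = 0.0143), which is 8.32-fold lower.

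The other 11 tested members did not pass in Dobermans against controls. Of the 13, 0 were called higher and 2 lower, which is 15.4% of the members, while 25.5% of all tested probe sets were called and 11.2% were called lower. A count this small is not read as a share particular to the members. On the leading probe sets the Doberman to control ratio ran from 1.08 for MYL3 to 1.53 for TNNC1, with adjusted p from 0.0782 to 0.700, and 6 of the 13 had an unadjusted p under 0.05, as did 42.5% of all tested probe sets. The median change of the 13 was 0.47, against 0.19 over all tested probe sets, and the median over the 100 brightest other probe sets was 0.37. The other bright MYH7 probe set, 1592346_s_at, read 23340, 70710 and 56439 in Dobermans, against 30021, 30927 and 20224 in controls, a change of 0.77 ± 0.32 (SE, adjusted p = 0.0818). On the 2 called MYH7 probe sets the Dobermans and controls did not overlap, as on 33.5% of all tested probe sets, and on the other 11 members they did.

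The Doberman calls moved with the arrays of L and R. With L and R left out, Doberman K alone gave 0 member calls, with leading changes between -0.34 and -0.03, and the changes of MYH7 1605998_at and MYH7 1604094_at were -0.51 (adjusted p = 0.194) and -0.50 (adjusted p = 0.273) in limma, with K assumed to vary like the other groups. Without K the count was 10, without L it was 1 and without R it was 1, in both cases MYH7 1605998_at. Both calls were also lost when only Dobermans and controls entered the fit (adjusted p = 0.116 and 0.121) and after the GAPDH ratio was entered as a covariate (0.318 and 0.384). Only L and R had a raised GAPDH ratio, so that covariate comes close to leaving them out and is no separate check. The cause was not tested.

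**Figure D2:**
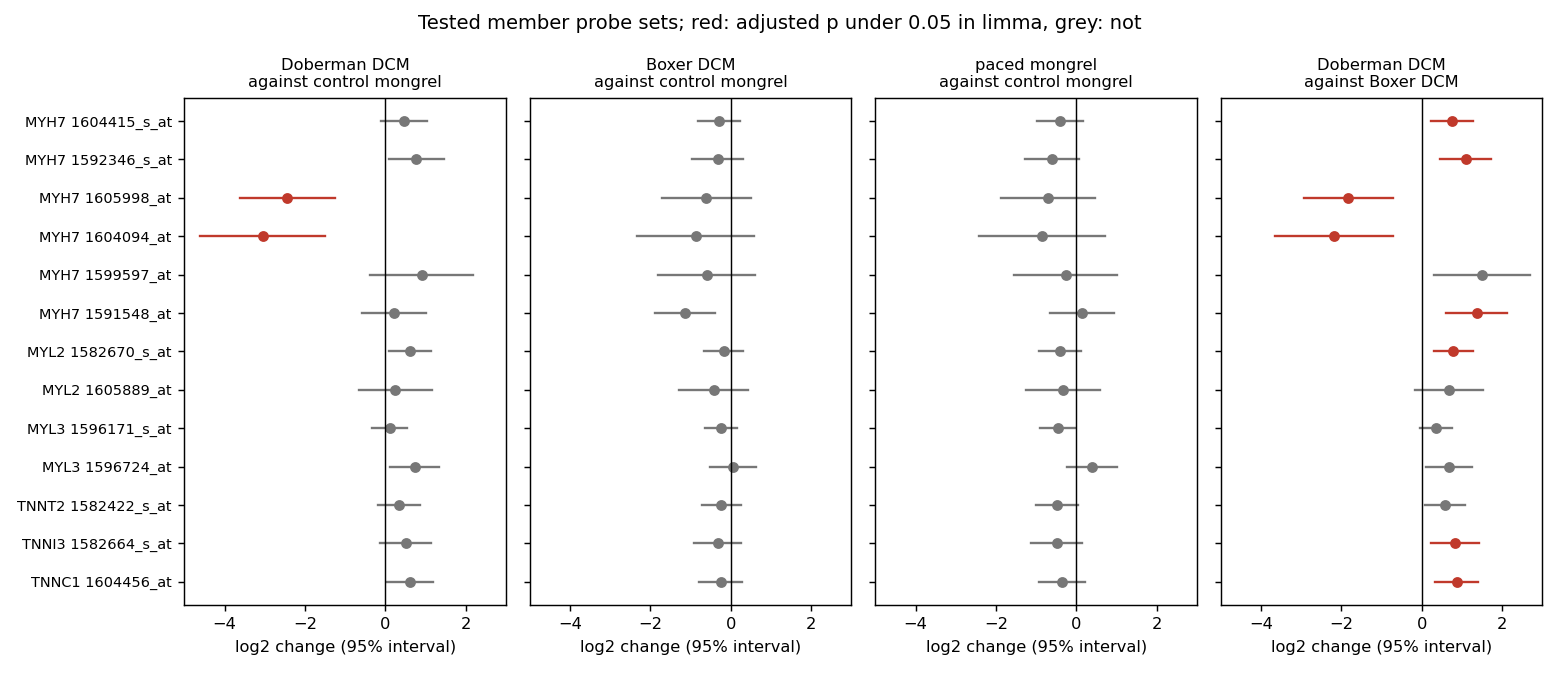
Log2 change (x axis, with 95% intervals from limma) of the 13 tested member probe sets (rows) in Dobermans, Boxers and paced hearts against controls and in Dobermans against Boxers. Points in red passed an adjusted p of 0.05: 2 MYH7 probe sets lower in Dobermans against controls, none in Boxers or paced hearts against controls, and 8 in Dobermans against Boxers.

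The 6 MYH7 probe sets did not move together. On the 2 bright probe sets whose names end in _s_at, which in Affymetrix naming marks probes shared by several transcripts, Dobermans L and R were the highest of all arrays. On the 2 bright ones ending in _at, 1605998_at and 1604094_at, the same L and R were the lowest of all 13 arrays. In Boxers these 2 ran from 14814 to 18530 and from 12273 to 15788, and in paced hearts from 13394 to 16625 and from 12349 to 15878, so every Boxer and every paced heart also lay below every control on both. Neither passed in Boxers, with changes of -0.61 and -0.88 (adjusted p = 0.873 and 0.853), or in paced hearts, with changes of -0.71 and -0.86 (adjusted p = 0.424 and 0.465), in the limma fit. That fit shares 1 estimate of spread between the groups, to which L and R contribute. In paced hearts both were called lower when only paced and control arrays entered the fit (3 members called, with adjusted p from 0.00853 to 0.0308) and with array weights (8 called, with adjusted p from 0.00904 to 0.0389). Of all 14302 tested probe sets, the former setting called 3576 and the latter 4222.

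**Figure D3:**
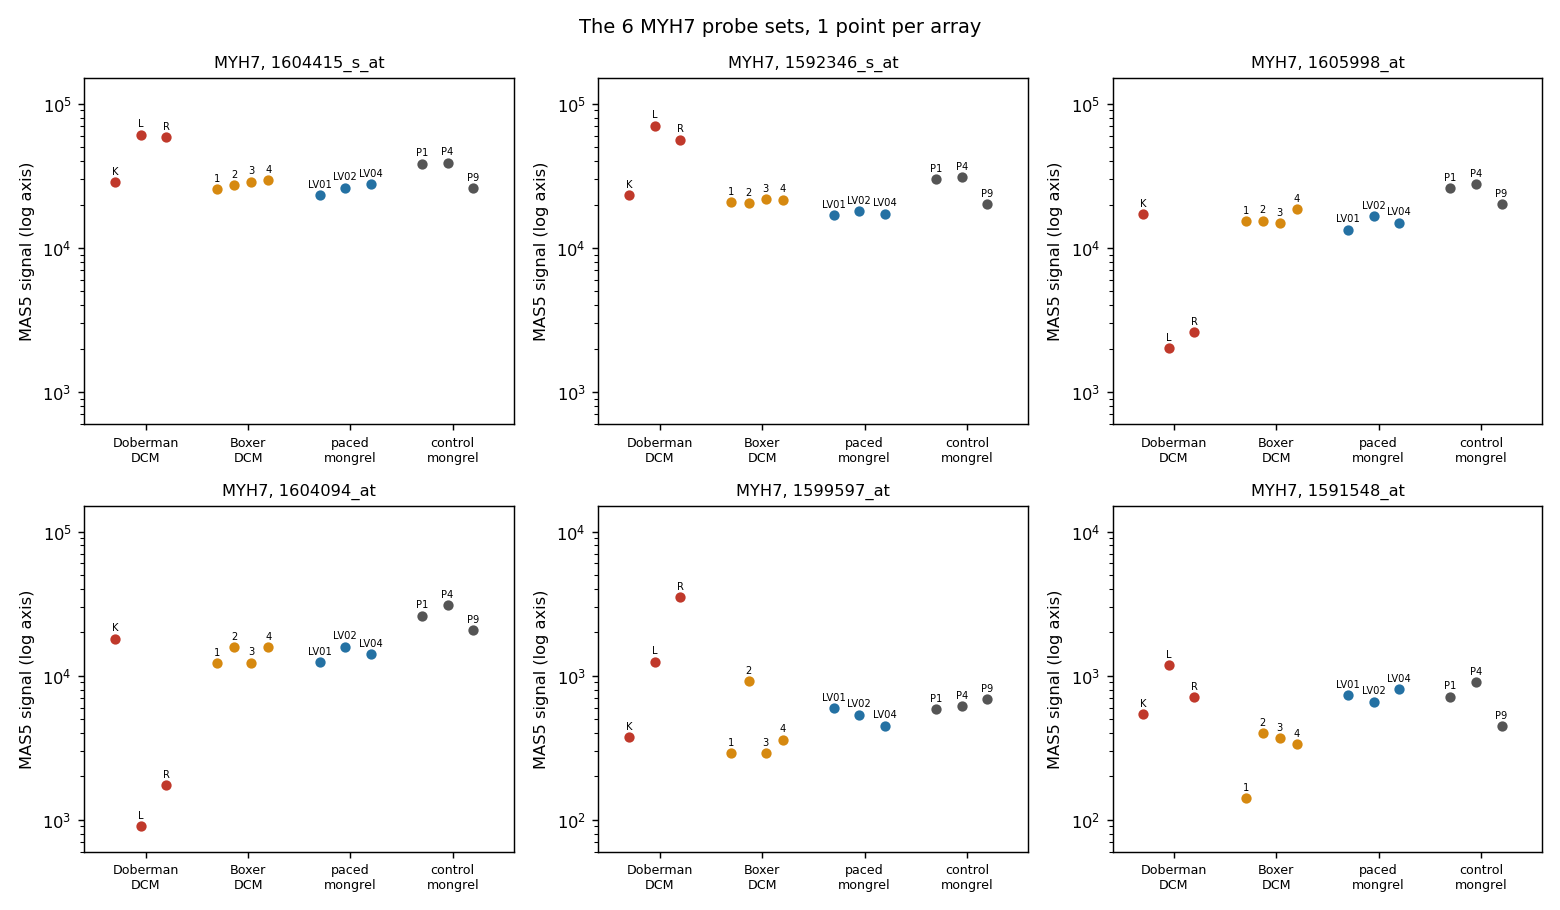
MAS5 signal (log y axis) of the 6 MYH7 probe sets, 1 point per array, in Doberman, Boxer, paced and control hearts. Dobermans L and R are highest on 1604415_s_at and 1592346_s_at and lowest on 1605998_at and 1604094_at, and all 4 Boxers lie below the controls on 1591548_at, whose 3 control values are 448 to 898.

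A ratio within each array takes out the array's scaling. The mean log2 signal of the 2 bright MYH7 _at probe sets minus that of the 2 bright _s_at ones, a measure chosen after the values were seen, was -0.56, -5.61 and -4.76 in Dobermans K, L and R, -0.75, -0.60, -0.90 and -0.56 in Boxers 1 to 4, -0.63, -0.42 and -0.59 in paced hearts, and -0.39, -0.24 and -0.17 in controls. All 10 arrays of the other 3 groups lay below every control. The Boxer mean was -0.70 ± 0.15 and the control mean -0.27 ± 0.11 (SD, n = 4 and 3), a difference of -0.44 with an exact two-sided permutation p of 0.0286, the smallest the design allows, and 0.171 after adjustment over 6 comparisons. Paced hearts averaged -0.54 ± 0.11, a difference of -0.28 from controls (exact permutation p = 0.1, the smallest that n = 3 against 3 allows), and the Doberman difference of -3.38 had the same exact p of 0.1. The GAPDH ratios were 0.968 to 1.09 in Boxers, 0.967 to 0.990 in paced hearts and 1.02 to 1.07 in controls, and their part in the MYH7 ratio was not tested. A ratio within an array shows unequal change of the probe sets, not which of them changed.

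**Figure D4:**
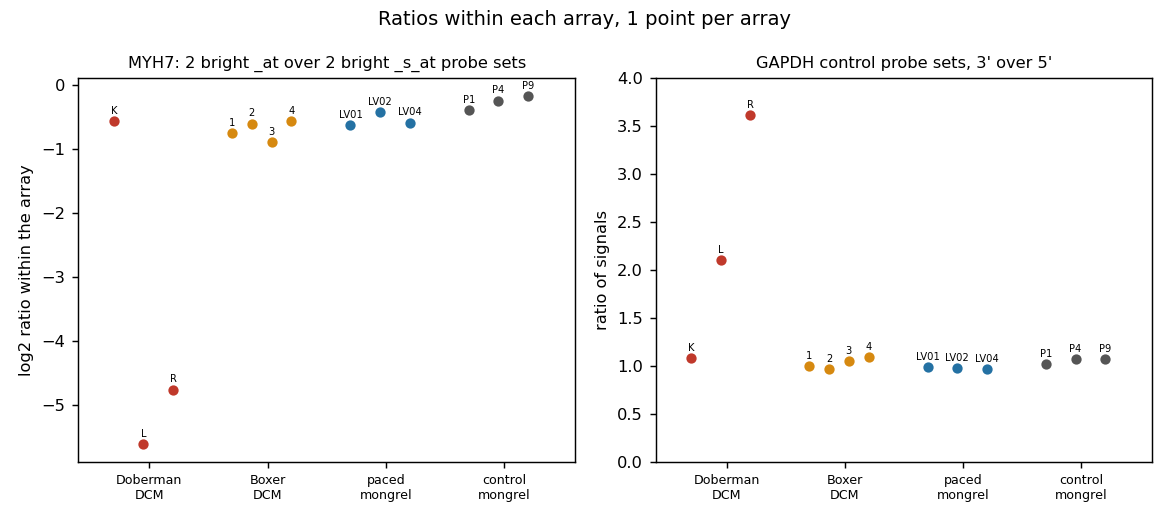
Left, log2 ratio within each array of the 2 bright MYH7 _at probe sets to the 2 bright _s_at ones (y axis); right, ratio of the GAPDH 3′ to 5′ control probe sets (y axis, starting at 0), 1 point per array in Doberman, Boxer, paced and control hearts. Every Doberman, Boxer and paced array lies below the 3 controls on the left, while on the right Dobermans L and R alone exceed 1.09.

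The 2 dim MYH7 probe sets differed from each other. MYH7 1591548_at read 540, 1187 and 712 in Dobermans K, L and R, 142, 398, 368 and 337 in Boxers 1 to 4, 735, 661 and 803 in paced hearts, and 716, 898 and 448 in controls. All 4 Boxers lay below every array of the other 3 groups. MYH7 1599597_at read 374, 1253 and 3513 in Dobermans, 289, 915, 291 and 360 in Boxers, 594, 536 and 450 in paced hearts, and 588, 618 and 687 in controls, and Dobermans L and R were the highest of all arrays, as on the 2 bright _s_at probe sets. In the dog RefSeq annotation MYH6, the alpha cardiac heavy chain, neighbours MYH7 and is a close paralog of it. No probe set was annotated with the symbol MYH6 alone, so how far an MYH7 probe set reads both was not tested.

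The light chains and troponin I each had 1 further, dim probe set. MYL2 1605889_at ran from 252 to 992 in Dobermans, 214 to 416 in Boxers, 257 to 493 in paced hearts and 316 to 541 in controls. MYL3 1596724_at ran from 515 to 1324 in Dobermans, 425 to 620 in Boxers, 624 to 671 in paced hearts and 416 to 621 in controls, so that paced hearts lay above every control while the leading MYL3 probe set lay below. TNNI3 1590410_at, which was not tested, ran from 13.7 to 131 in Dobermans, 91.7 to 115 in Boxers, 39.6 to 208 in paced hearts and 51.1 to 152 in controls.

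Boxers with DCM showed no member change against controls that passed the test. Of the 13 members 0 were called in limma, where 0.0420% of all tested probe sets were called. An unadjusted p under 0.05 was reached by 7.40% of all tested probe sets and by 1 member, MYH7 1591548_at at -1.14 ± 0.35 (SE, adjusted p = 0.436). On the leading probe sets the Boxer to control ratio ran from 0.796 for TNNI3 to 0.884 for MYL2, with adjusted p from 0.853 to 0.927. Every Boxer lay below every control on 3 of the 13, all of MYH7 (1605998_at, 1604094_at and 1591548_at), where 9.38% of all tested probe sets lay so. The median change of the 13 was -0.33, against -0.03 over all tested probe sets and -0.17 over the 100 brightest others.

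Paced hearts likewise had 0 of the 13 members called against controls in limma, where 12.2% of all tested probe sets were called. An unadjusted p under 0.05 was reached by 28.7% of all tested probe sets and by 1 member, the leading MYL3 probe set at -0.47 ± 0.20 (SE, adjusted p = 0.146). The paced to control ratio of leading probe sets ran from 0.713 for TNNI3 to 0.784 for TNNC1. On 4 of the 13 every paced heart lay below every control (the leading MYL3 probe set and MYH7 1592346_s_at, 1605998_at and 1604094_at) and on 1 above (MYL3 1596724_at), where 44.0% of all tested probe sets did not overlap. The leading changes depended on the scaling: the median change of the leading 6 was -0.44, that of the 100 brightest other probe sets was -0.35, and with arrays centred on those 100 the leading changes were -0.10 to 0.04. With each array centred on its median, 7 members were called lower in paced hearts, all 6 leading ones among them, at changes of -0.996 to -0.861. That setting called 3394 of all 14302 tested probe sets lower. Array medians as deposited differed by 0.51.

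**Figure D5:**
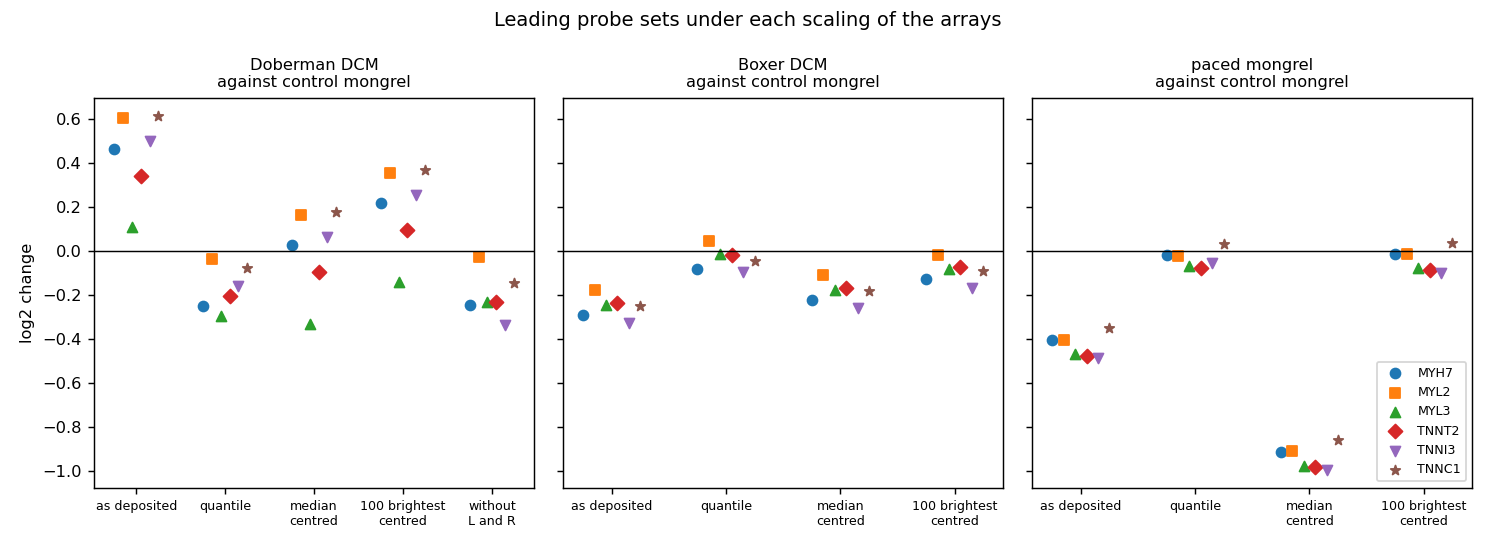
Log2 change (y axis) of the leading probe set of each gene in Dobermans, Boxers and paced hearts against controls, for signals as deposited, quantile normalized, centred on each array's median or on the 100 brightest other probe sets, and, for Dobermans, without L and R. In Dobermans the changes run from 0.11 to 0.62 as deposited and from -0.30 to -0.03 after quantile normalization, and in paced hearts from -0.49 to -0.35 as deposited and from -0.996 to -0.861 after median centring.

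Dobermans and Boxers were compared directly, which, since both share the same controls, is also the test of whether their changes differ. In limma, 6 of the 13 members were higher in Dobermans and 2 lower, 61.5% of the members, where 35.4% of all tested probe sets were called. In the thick filament MYH7 1604415_s_at was 1.69-fold higher (0.76 ± 0.25, SE, adjusted p = 0.0307), MYH7 1592346_s_at 2.14-fold higher (adjusted p = 0.0154), MYH7 1591548_at 2.57-fold higher (adjusted p = 0.0130) and leading MYL2 1.72-fold higher (adjusted p = 0.0205). MYH7 1605998_at was 3.56-fold lower (adjusted p = 0.0175) and MYH7 1604094_at 4.53-fold lower (adjusted p = 0.0263). In the troponin complex TNNC1 was 1.82-fold higher (0.87 ± 0.25, adjusted p = 0.0196) and leading TNNI3 1.78-fold higher (adjusted p = 0.0329). TNNT2 (0.58, 95% interval 0.09 to 1.07, adjusted p = 0.0612) and leading MYL3 (0.35, 95% interval -0.05 to 0.76, adjusted p = 0.153) did not pass. Every Doberman lay above every Boxer on 4 members (MYH7 1592346_s_at and 1591548_at, leading MYL2 and TNNC1), where 34.0% of all tested probe sets had groups that did not overlap.

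Those 8 calls depended on which arrays entered the fit, and most on L and R. The count was 0 without L, 1 without R, 13 without K, 5 without Boxer 4, and 0 with both L and R left out. With only Dobermans and Boxers in the fit 1 was called, and 0 after the GAPDH ratio was entered as a covariate. That covariate, raised on L and R alone, is no separate check from leaving them out. The call kept in the fit on these breeds and without R was MYH7 1591548_at (limma adjusted p = 0.0489 and 0.0359). On that probe set Doberman K, at 540, lay above every Boxer. The 4 leading probe sets that passed turned to between -0.17 and -0.03 after quantile normalization. The 100 brightest other probe sets had a median change of 0.50 between the breeds, with 31 called higher and 7 lower, against a median of 0.77 for the leading 6.

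Against the paced hearts, 6 members were higher in Dobermans and 2 lower in limma, where 24.6% of all tested probe sets were called. The 6 were MYH7 1604415_s_at and 1592346_s_at and the leading probe sets of MYL2, TNNT2, TNNI3 and TNNC1, at ratios from 1.76 for TNNT2 to 2.60 for MYH7 1592346_s_at, and the 2 were MYH7 1605998_at and MYH7 1604094_at, at ratios of 0.300 and 0.218. Leading MYL3 had a ratio of 1.49 (95% interval on the log2 scale 0.14 to 1.01, adjusted p = 0.0526). All 3 Dobermans lay above every paced heart on 7 members, the 6 leading ones and MYH7 1592346_s_at, where 16.7% of all tested probe sets did so. Leaving out L gave 2 calls, R 2, LV01 2, LV02 3 and LV04 2, leaving out both L and R gave 0, and with only these groups in the fit there were 0. The 100 brightest other probe sets had a median change of 0.69, against 0.92 for the leading 6.

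Boxers and paced hearts differed in 1 member in limma, where 17.7% of all tested probe sets were called. MYH7 1591548_at was 2.44-fold lower in Boxers (-1.28 ± 0.35, SE, adjusted p = 0.0229), and every Boxer lay below every paced heart. Without Boxer 1, which had the lowest value, the change was -0.96 (adjusted p = 0.0501), and without LV01, LV02 or LV04 the adjusted p ran from 0.0525 to 0.0821. On the leading probe sets the Boxer to paced ratio ran from 1.07 to 1.18, and none passed. With each array centred on its median, 7 members and 4741 of all 14302 tested probe sets were called higher in Boxers. The change of MYH7 1591548_at was then -0.71 (adjusted p = 0.115).

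Genes tested outside the members were each read by 1 probe set, the tested one with the highest mean signal. Other probe sets of these genes are not given and could differ, as those of MYH7 did. Among related myosin and troponin genes of other muscle types, 11 of 16 were on the array by symbol, 4 passed the filter (MYL1, MYL4, MYL7 and TNNT1), and 0 were called in any of the 6 comparisons in limma, where 26.0% of 5242 tested genes were called in Dobermans against controls. With L and R left out 1 was called, TNNT1, the slow skeletal troponin T, lower in Doberman K than in paced hearts (-1.16, adjusted p = 0.0250). MYL1, the fast skeletal essential light chain, read 687, 431 and 242 in Dobermans K, L and R, 330, 230, 200 and 1415 in Boxers, 458, 358 and 336 in paced hearts, and 126, 124 and 154 in controls. Every array of the other 3 groups lay above every control for MYL1, with changes of 1.53 in Dobermans (adjusted p = 0.0580; 2.23 without L and R, adjusted p = 0.147), 1.43 in Boxers (adjusted p = 0.561) and 1.40 in paced hearts (adjusted p = 0.116). MYL7 and MYL4, the atrial regulatory and essential light chains, summed to 12000 to 17720 in Dobermans, 9448 to 19190 in Boxers, 10910 to 16840 in paced hearts and 10310 to 13440 in controls.

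Of the thin filament and myosin-binding genes, 11 of 14 were tested, with 1 higher and 1 lower in Dobermans against controls, 0 in Boxers, where 0.0572% of genes were called, and 1 higher in paced hearts, where 9.23% were. TPM2, beta tropomyosin, read 2840, 3031 and 3187 in Dobermans, against 1833, 1851 and 1634 in controls, and was higher by 0.76 ± 0.15 on the log2 scale (SE, adjusted p = 0.00730). TMOD1, which caps the pointed end of the thin filament, read 3316, 3404 and 4396 in Dobermans, against 6231, 6211 and 5067 in controls, and fell by 0.66 ± 0.18 (adjusted p = 0.0221). TPM2 kept its call with L and R left out (0.68, adjusted p = 0.0450), and TMOD1 did not (-0.81, adjusted p = 0.0550). ACTA1, skeletal actin, was the gene called in paced hearts, at 6501, 6465 and 7277, against 555, 520 and 1012 in controls (3.31 ± 0.33, adjusted p = 0.000261).

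Of the kinases, phosphatases and chaperones that act on myosin or troponin, 8 of 17 were tested, and 2 were lower in Dobermans, 0 changed in Boxers and 0 in paced hearts against controls in limma. The 2 of 8 stand beside 26.0% of all tested genes called in Dobermans. PPP1CB, the catalytic subunit of myosin phosphatase, read 2503, 33.1 and 212 in Dobermans K, L and R, against 2297, 2617 and 2367 in controls (-3.00 ± 0.91, adjusted p = 0.0319). UNC45B, the muscle chaperone that folds the myosin head, read 1753, 1220 and 2277 in Dobermans, against 3289, 2968 and 2863 in controls (-0.83 ± 0.27, adjusted p = 0.0377). Doberman K lay within the control range for PPP1CB, and without L and R its change was 0.05 (adjusted p = 0.939). For UNC45B all 3 Dobermans lay below every control, and without L and R its change was of like size, -0.79, without passing (adjusted p = 0.205).

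Of the transcription regulators of sarcomere genes, 6 of 21 were tested, with 0 called in Dobermans or Boxers and 1 lower in paced hearts against controls. THRB, a thyroid hormone receptor through which hormone lowers MYH7 transcription in rodents, read 96.0, 214 and 115 in paced hearts, against 547, 537 and 469 in controls, and fell by 1.83 ± 0.30 on the log2 scale (SE, adjusted p = 0.00309). All 3 paced hearts lay below every array of the other groups for THRB. The leading MYH7 probe set of the same hearts was called neither way in the main fit, and lower with array weights or median centring. A link between THRB and MYH7 was not tested.

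Markers of cell types other than heart muscle were read beside the members. Skeletal muscle markers were on the array for 7 of 8 genes, and all 10 of their probe sets lay between 2.1 and 262.8 and missed the filter, so none was at 0. Summed signals of the 4 tested fibroblast markers of 6 were 18160 to 26480 in Dobermans, 15800 to 25360 in Boxers, 12210 to 14950 in paced hearts and 11790 to 19040 in controls, with 20420 in Doberman K. DCN, the brightest of the 4, read 12285, 22124 and 15968 in Dobermans K, L and R, against 11228, 10703 and 8985 in controls. COL3A1 read 2217, 171 and 381 in Dobermans, against 1056, 2049 and 625 in controls. The sum thus joins genes that did not move together. Summed signals of the 2 tested lymphocyte markers of 4 were 835 to 1650 in Dobermans, 358 to 575 in Boxers, 159 to 316 in paced hearts and 420 to 600 in controls. On this sum Dobermans, K at 835 included, lay above and paced hearts below every control. Of the 2, CD3E was called higher in Dobermans and lower in paced hearts against controls, and CD3D neither way. The sums of smooth muscle, endothelial, macrophage and adipocyte markers overlapped the controls in Dobermans, Boxers and paced hearts. Single genes within them could still differ. In paced hearts against controls SMTN (smooth muscle) was called higher and TEK (endothelial) lower in limma. No other tested gene of these lists was called against controls in any group. The summed signals of 5 tested heart muscle markers of 8, MYH7 and TNNT2 among them, were 96820 to 181200 in Dobermans, 92780 to 106900 in Boxers, 80660 to 94280 in paced hearts and 93820 to 132700 in controls. Of the list's genes that are no members, RYR2, the calcium release channel, read 4793, 3504 and 3269 in Dobermans K, L and R, against 8946, 8123 and 7556 in controls, and fell by 1.10 ± 0.21 on the log2 scale (SE, adjusted p = 0.00746). The change of ACTN2, the actinin of the Z-disc, was -0.26 ± 0.18, which did not pass (adjusted p = 0.273). ACTC1 did not fall in L and R. It read 19973, 40374 and 27293 in Dobermans K, L and R, against 22642, 23417 and 17050 in controls, and did not pass. The part of these markers in the members' values was not tested.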

How the data were processed

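Gene expression was measured in 13 canine heart samples on 1 Affymetrix array each. The deposited values are linear signal intensity per probe set, computed by the authors with MAS5, per the submitters' processing notes; the version and any further steps are not given in the sources used here. The 2% trimmed mean of 500.1 on every array was read from the values. Probe sets were named from the platform annotation: 10549 had 1 symbol, 138 several and 13149 none. The members and gene lists were chosen with earlier results of these data known.

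After 77 control probe sets were left out, log2(signal + 16) was fitted with limma 3.58.1 in R 4.3.3, with 1 mean per group over all arrays (9 residual degrees of freedom), eBayes with trend, and two-sided tests with Benjamini-Hochberg adjustment at 0.05. The filter kept the 14302 probe sets whose mean over all arrays was at or above the 40th percentile, which is 6.95 in log2 or 108 in signal. A fold change is on this log2(signal + 16) scale. Every member probe set is named. Each other gene stands on 1 probe set, the tested one with the highest mean signal. Of each list, at most 4 genes that passed and 3 that did not are named per comparison. MYL7 and MYL4 are given as a sum.

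The MYH7 ratio was compared by exact permutation of samples. The number of arrays limits precision. Alternatives were each array left out, arrays quantile normalized or centred on their medians, a pseudocount of 1 or of 64, all probe sets unfiltered, a fit on the compared groups alone, weighted arrays, a GAPDH ratio covariate, Dobermans L and R left out, _at probe sets alone, and, chosen after seeing the data, centring on the 100 brightest other probe sets, the MYH7 ratio, and the lists without L and R. Taking _at probe sets alone recounted the main calls with no new fit, so that count could only stay or fall. The limma step was tested on simulated data. Figures were drawn with Python 3.11.15 and matplotlib 3.10.9. Member sequences were not used here.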

Additional observations from a re-analysis of the deposited data

Results flagged for a closer look

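In a group of 4 arrays a value was listed when its gap to the nearest other was, as a share of the group's range, above Dixon's 95% critical value, which chance gives in about 1 in 20 groups. Boxer 2 was set apart in this way on MYH7 1599597_at, at 915.3, with a gap of 0.886 of the range, and on TNNI3 1590410_at, at 115.3, with a gap of 0.953. The other 12 member probe sets gave no such value in Boxers, and groups of 3 were not examined.

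The change in Dobermans minus the change in Boxers, against the same controls, passed the limma test for 8 members. The difference was 0.76 for MYH7 1604415_s_at, 1.10 for MYH7 1592346_s_at, 1.36 for MYH7 1591548_at, 0.78 for MYL2 1582670_s_at, 0.83 for TNNI3 1582664_s_at and 0.87 for TNNC1 1604456_at on the log2 scale. It was -1.83 for MYH7 1605998_at and -2.18 for MYH7 1604094_at. Doberman K alone gave 0 of these 8 calls.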

How the results depend on the processing

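In Dobermans against controls, the 2 member calls became 1 to 10 with 1 array left out, 6 with array weights, and 0 with the compared groups alone, with the GAPDH covariate, or without L and R. In Boxers against controls the count was 0 under every alternative run. Since only L and R had a raised GAPDH ratio, the GAPDH covariate is no separate check from leaving them out. Counts among _at probe sets alone are the main calls recounted over fewer members, with no new fit. In paced hearts against controls, 0 members were called with any 1 array left out, 7 with median centring, 3 with the compared groups alone and 8 with array weights. In Dobermans against Boxers, the 8 calls became 0 to 13 with 1 array left out, 3 with quantile normalization, 2 with median centring, 1 with the compared groups alone, 4 among _at probe sets alone, and 0 with the GAPDH covariate or without L and R. In Dobermans against paced hearts, the 8 calls became 2 to 12 with 1 array left out, 3 with quantile normalization, 3 among _at probe sets alone, 4 when centred on the 100 brightest, and 0 with the compared groups alone, the GAPDH covariate or without L and R. In Boxers against paced hearts, the 1 call became 0 to 1 with 1 array left out, 7 with median centring and 2 with the compared groups alone. Quantile normalization reversed, in Dobermans against Boxers, MYH7 1604415_s_at (-0.17), MYL2 1582670_s_at (-0.079), TNNI3 1582664_s_at (-0.062) and TNNC1 1604456_at (-0.032), and in Dobermans against paced hearts MYH7 1604415_s_at (-0.23), MYL2 1582670_s_at (-0.0097), TNNT2 1582422_s_at (-0.13), TNNI3 1582664_s_at (-0.10) and TNNC1 1604456_at (-0.11). Leaving out L and R reversed, in Dobermans against Boxers, MYH7 1605998_at (0.094), MYH7 1604094_at (0.37) and TNNI3 1582664_s_at (-0.0066), and in Dobermans against paced hearts MYH7 1605998_at (0.19) and MYH7 1604094_at (0.36). The cause was not tested. Over all probe sets, 3644 calls in Dobermans against controls became 20 with the compared groups alone, 95 with the GAPDH covariate, 376 without L and R and 1126 centred on the 100 brightest. It was 7349 without K, 1192 without L, 1728 without R, 1414 without P1, 1577 without P4 and 1836 without P9. Under the first 4 of these settings in that order, in Dobermans against Boxers 5066 became 2114, 56, 304 and 3145. In Dobermans against paced hearts 3514 became 524, 1028, 2265 and 5529 likewise, and 5974 with no filter. The Doberman count against Boxers was 8110 without K, 2213 without L, 2754 without R and 3299 without Boxer 3. That against paced hearts was 6183 without K and 2138 to 2156 without LV01, LV02 or LV04. In Boxers against controls 6 became 25 with the compared groups alone, 254 with array weights and 12 without P9. In paced hearts against controls 1747 became 3924 with median centring, 4389 with no filter, 3576 with the compared groups alone, 4222 with array weights, 2935 with the GAPDH covariate, 3495 centred on the 100 brightest and 811 to 1114 with any 1 array left out. In Boxers against paced hearts 2536 became 5403 with median centring, 5720 with no filter, 5197 with the compared groups alone, 5280 with array weights and 1287 to 1633 without LV01, LV02, LV04 or Boxer 3.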
